A study of Mus musculus with 12 samples.

Results

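The antibody variable segments of the mouse were followed through 12 RNA-seq libraries of colonic adenomas. They are the genes whose symbol starts with Ighv (heavy chain), Igkv (kappa light chain) or Iglv (lambda light chain), and 194 of the 25705 listed genes met this rule, 98 of them Ighv, 93 Igkv and 3 Iglv. The names were taken from the table and no measured value was used to choose them. Levels are FPKM, fragments per kilobase of transcript scaled to the mapped fragments of a library, as the authors deposited them.

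All animals were C57BL/6J mice killed at 150 to 160 days of age and carried ApcMin/+, the Min allele of the tumour suppressor gene Apc, which causes adenomas of the intestine. Each of the 4 groups has 3 libraries. The first group is Tet1-/- Tdg+/+ (Tet1-null). The second is Tet1+/- TdgN151A/+ (double-heterozygous), the third is Tet1+/+ TdgN151A/+ (Tdg-heterozygous), and the last is Tet1+/+ Tdg+/+ (control). TET1 is a dioxygenase acting on methylated cytosine, and TDG is a glycosylase that excises the oxidised products from DNA. The N151A change lies in the catalytic site of TDG. A library is called by its group and its column number (0, 1 or 2), which could not be tied to the replicate numbers of the labels. The adenomas were dissected whole, so the RNA comes from every cell type in them, and the labels do not say whether each library is a separate animal or adenoma.

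An antibody gene is assembled in a developing B cell by joining 1 variable segment to shorter segments, and the joined segment is then transcribed together with a constant region. Each B cell, and each plasma cell that descends from it, uses 1 heavy and 1 light chain variable segment in its antibody. In the gut, plasma cells beneath the epithelium secrete mostly IgA, whose heavy chain constant region is encoded by Igha and which is joined into dimers by the J chain (listed as Igj). A bulk library therefore sums the segments used by many cells, weighted by how much antibody RNA each cell makes, and the number of cells and the RNA per cell cannot be told apart.

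For 6 segments that carry much of what follows, the last 300 bases of the coding sequence are printed 5′ to 3′, from GENCODE M21 transcripts (GRCm38, the assembly also called mm10). The capitals run from the last in-frame cysteine codon to the 3′ end of the segment, the stretch at which the segment is joined to the next one and where the most variable binding loop of the antibody begins. Iglv1 is at chr16:19085017-19085500 on the minus strand, Igkv1-110 at chr6:68270485-68271267, Igkv1-117 at chr6:68121046-68121827 and Igkv1-135 at chr6:67609713-67610508, these 3 on the plus strand. Ighv1-81 is at chr12:115920279-115920712 and Ighv1-19 at chr12:114708648-114709135, both on the minus strand. Ighv1-19 was chosen after its values were seen.
Iglv1: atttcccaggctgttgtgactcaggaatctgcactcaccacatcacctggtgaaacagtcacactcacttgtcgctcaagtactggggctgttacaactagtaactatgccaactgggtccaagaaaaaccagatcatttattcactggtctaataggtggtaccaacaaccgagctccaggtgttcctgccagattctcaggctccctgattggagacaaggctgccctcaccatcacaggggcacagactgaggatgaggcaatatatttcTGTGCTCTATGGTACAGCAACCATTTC
Igkv1-110: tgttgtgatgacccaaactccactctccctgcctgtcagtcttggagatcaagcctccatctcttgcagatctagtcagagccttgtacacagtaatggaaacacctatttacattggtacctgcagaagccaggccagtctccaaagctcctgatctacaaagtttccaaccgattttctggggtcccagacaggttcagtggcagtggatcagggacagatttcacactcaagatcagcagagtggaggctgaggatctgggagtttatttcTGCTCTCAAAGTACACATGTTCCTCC
Igkv1-117: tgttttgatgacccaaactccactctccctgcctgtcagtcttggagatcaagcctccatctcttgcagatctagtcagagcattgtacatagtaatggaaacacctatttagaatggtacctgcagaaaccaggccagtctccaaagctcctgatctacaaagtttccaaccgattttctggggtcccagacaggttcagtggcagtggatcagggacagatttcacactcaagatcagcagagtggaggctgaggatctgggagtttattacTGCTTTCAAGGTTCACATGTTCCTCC
Igkv1-135: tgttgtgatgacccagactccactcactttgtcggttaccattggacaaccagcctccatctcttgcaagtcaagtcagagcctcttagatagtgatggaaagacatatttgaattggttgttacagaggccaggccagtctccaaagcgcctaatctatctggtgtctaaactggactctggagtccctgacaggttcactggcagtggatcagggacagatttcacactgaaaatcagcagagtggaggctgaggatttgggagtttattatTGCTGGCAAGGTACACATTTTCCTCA
Ighv1-81: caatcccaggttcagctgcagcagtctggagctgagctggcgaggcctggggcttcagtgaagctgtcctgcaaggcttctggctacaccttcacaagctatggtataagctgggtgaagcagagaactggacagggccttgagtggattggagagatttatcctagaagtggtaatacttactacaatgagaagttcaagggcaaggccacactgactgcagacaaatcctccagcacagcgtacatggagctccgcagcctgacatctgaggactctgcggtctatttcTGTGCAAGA
Ighv1-19: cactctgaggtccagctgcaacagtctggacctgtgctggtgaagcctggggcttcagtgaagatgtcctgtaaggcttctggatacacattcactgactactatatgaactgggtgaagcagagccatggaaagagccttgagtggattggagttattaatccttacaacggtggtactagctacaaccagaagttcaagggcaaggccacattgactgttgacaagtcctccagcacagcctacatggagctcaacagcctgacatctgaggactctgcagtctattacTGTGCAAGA

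Igkv1-110 and Igkv1-117 are identical at 97.2% of aligned bases of the whole coding sequence, whereas Igkv1-135 matches them at 78.3% and 77.7%. Ighv1-81 and Ighv1-19 are identical at 85.2%. Such likeness limits what a read of 75 bases can tell. Of the 75-base windows of Ighv1-81, 59.9% differ by more than 2 bases from every other variable segment transcript. The same share is 28.1% for Igkv1-110, 28.8% for Igkv1-117, 31.9% for Iglv1, 32.5% for Igkv1-135 and 45.0% for Ighv1-19. Over the 184 rows matched to GENCODE M21 the median share is 52.6%, and 5 segments have no such window. Levels of single segments, in particular of close relatives, are therefore uncertain in how reads were divided between them.

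The libraries were alike in their general measures. FPKM totals lay between 663551 and 977282, and 13692 to 14384 genes reached 1 FPKM. Read totals were not used here. The depth relative to Tet1-null library 0 was estimated from the steps between low values. It was lowest in Tdg-heterozygous library 2 (0.818) and highest in control library 2 (1.38). Whole-gene FPKM could not check the Tet1 genotype, since Tet1 was between 0.127 and 0.621 FPKM in all 12 libraries, with the highest value in Tet1-null library 0, and the labels do not say which part of the gene is deleted. Tdg, whose mutant allele carries a point mutation that FPKM does not show, was between 25.8 and 40.1 FPKM. The sexes were unevenly spread: the female-specific RNA Xist exceeded 10 FPKM in Tet1-null library 2, in no double-heterozygous library, in Tdg-heterozygous libraries 0 and 2, and in control libraries 1 and 2.

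The summed FPKM of all variable segments differed 10.9-fold between the highest and the lowest library. In Tet1-null libraries 0, 1 and 2 it was 883, 507 and 2397 FPKM. In the double-heterozygous libraries it was 1320, 726 and 562 FPKM, in the Tdg-heterozygous libraries 823, 2442 and 243 FPKM, and in the controls 522, 488 and 225 FPKM. The 2 highest libraries were Tet1-null library 2 and Tdg-heterozygous library 1. Tdg-heterozygous library 2 and control library 2 were the lowest. The 3 double-heterozygous sums all lay above the controls, whereas the Tet1-null and Tdg-heterozygous sums overlapped them. In the libraries with Xist above 10 FPKM the sum ran from 225 to 2397 FPKM, with a median of 488 (n = 5), and in the others from 507 to 2442 FPKM, with a median of 726 (n = 7). The part of sex in these sums was not tested.

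**Figure D1:**
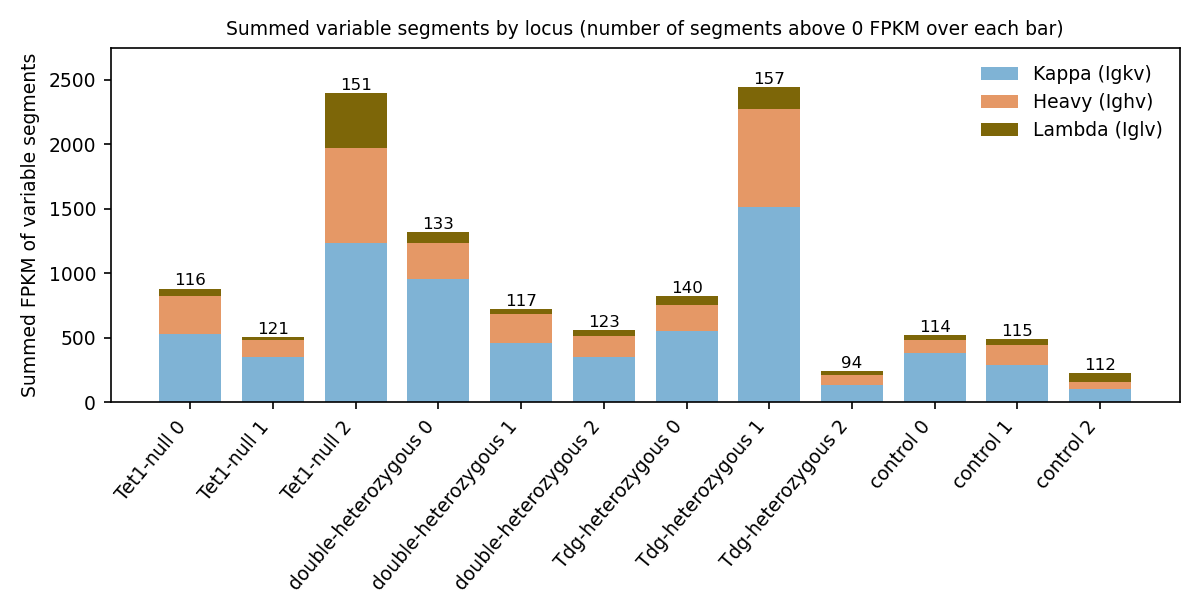
Summed FPKM of variable segments in each of the 12 libraries (y axis, linear from 0), split into kappa, heavy and lambda segments, with the number of segments above 0 FPKM printed over each bar. Tet1-null library 2 and Tdg-heterozygous library 1 reach 2397 and 2442 FPKM, and the controls lie between 225 and 522 FPKM.

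On the log2 scale the mean sum was higher than in the controls by 1.41 in Tet1-null, by 1.08 in double-heterozygous and by 1.03 in Tdg-heterozygous libraries, against a standard deviation of 1.11 within groups. These are geometric means 2.66, 2.11 and 2.04 times that of the same 3 controls, and no p is given for a sum over chosen genes. Single libraries set much of their size. Without Tet1-null library 2 the Tet1-null difference was 0.80. Without control library 2 the double-heterozygous difference was 0.69, and without double-heterozygous library 0 it was 0.73. The Tdg-heterozygous difference was 0.22 without Tdg-heterozygous library 1, 1.88 without Tdg-heterozygous library 2 and 0.64 without control library 2. Double-heterozygous and Tdg-heterozygous libraries differed by 0.047, with values between -0.80 and 0.86 when a library was left out. Leaving out Tet1-null library 0, the one with the highest Tet1, gave a Tet1-null difference of 1.52.

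How many segments were seen followed the sums only in part. Above 0 FPKM stood 116, 121 and 151 segments in the Tet1-null, 133, 117 and 123 in the double-heterozygous, 140, 157 and 94 in the Tdg-heterozygous and 114, 115 and 112 in the control libraries. The controls were close together, and Tdg-heterozygous library 2 alone showed fewer segments than they did. At least 1 FPKM was reached by 80, 77 and 125 segments in the Tet1-null, 86, 83 and 92 in the double-heterozygous, 91, 125 and 45 in the Tdg-heterozygous and 70, 81 and 50 in the control libraries. At least 10 FPKM was reached by 52 segments in each of the 2 highest libraries and by 2 to 25 in the others. The lowest values above 0 differed between libraries. The median of the 10 lowest segment values above 0.1 FPKM was 0.24 FPKM in control library 2, and 0.40 FPKM in Tdg-heterozygous library 2. The relative depth was estimated from such low values and is no separate measure of this floor. Control library 2, with the highest relative depth, had 112 segments above 0, and Tdg-heterozygous library 1, at 1.04, had 157. Their sums also differed, at 225 and 2442 FPKM. Tdg-heterozygous library 2, with the lowest relative depth (0.818) and a sum of 243 FPKM, had 94. The part of depth in these counts was not tested.

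Most segments were not shared by all libraries. Of the 194 segments, 33 were above 0 in all 12 libraries, 44 in 3 libraries or fewer and 18 in a single library. 6 reached 1 FPKM in all 12 libraries, and 29 reached it in none. At least 1 library of the group showed 169 segments in Tet1-null, 161 in double-heterozygous, 176 in Tdg-heterozygous and 154 in control samples. Seen in 1 group and no other were 4 segments in Tet1-null, 3 in double-heterozygous, 10 in Tdg-heterozygous and 5 in control libraries. These counts were not tested, and the share over all genes was not computed. Chosen after their values were seen, the highest of these were Igkv2-116 (at most 0.925 FPKM) in Tet1-null, Igkv4-92 (0.657 FPKM) in double-heterozygous, Ighv1-2 (11.2 FPKM) in Tdg-heterozygous and Igkv7-33 (1.62 FPKM) in control libraries. Those of the Tet1-null and double-heterozygous groups thus stayed below 1 FPKM. Igkv2-116 and Ighv1-2 were not matched to GENCODE M21, so how far their reads can be told from those of other segments is not known. In 77 segments, a single library held over 50% of the sum of the 12 libraries. They include by construction the 18 seen in a single library, and 30 of the 77 reached 1 FPKM in at least 3 libraries.

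A few segments made up much of each library. The highest single segment took between 7.12% and 29.6% of the sum, and the 10 highest took 61.4%, 48.3% and 52.5% in the Tet1-null, 61.6%, 49.0% and 39.9% in the double-heterozygous, 61.5%, 51.3% and 55.0% in the Tdg-heterozygous and 64.2%, 37.6% and 53.5% in the control libraries. The groups overlapped fully: the controls hold both the highest and the lowest share. The effective number of segments, the exponential of the Shannon entropy of the shares, says how many equally abundant segments would give the same evenness. It was 33.4, 51.9 and 47.1 in the Tet1-null, 33.3, 50.4 and 64.8 in the double-heterozygous, 39.8, 53.3 and 41.8 in the Tdg-heterozygous and 27.9, 61.9 and 37.7 in the control libraries. The most even library was double-heterozygous library 2 and the least even was control library 0, whereas the libraries with the highest sums lay between them.

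**Figure D2:**
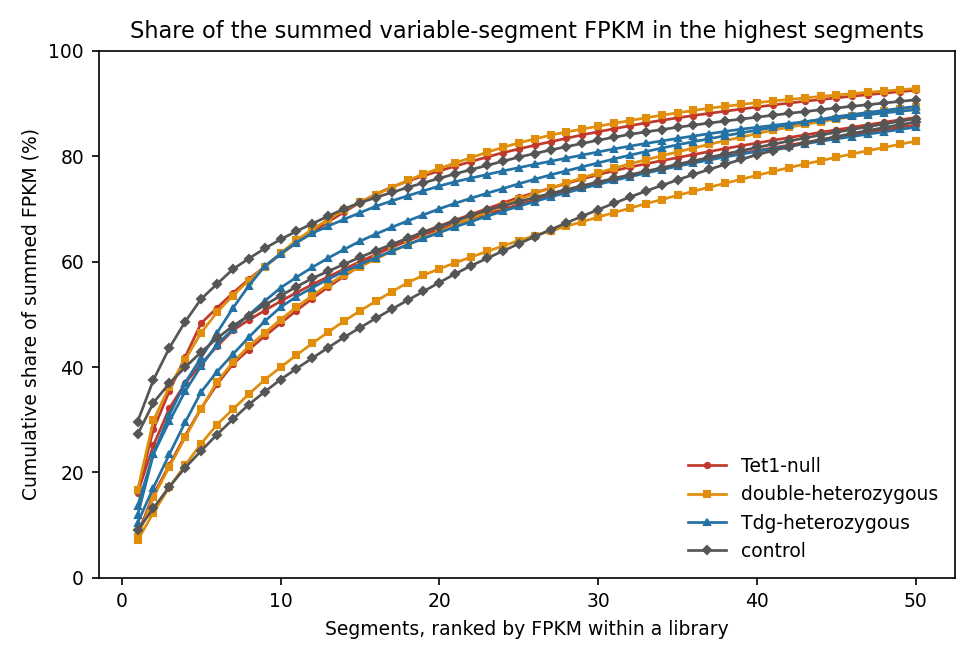
Cumulative share of the summed variable-segment FPKM (y axis, percent) held by the highest 1 to 50 segments of each library (x axis), 1 line per library, coloured and marked by group. At 10 segments the lines lie between 37.6% and 64.2%, both of them controls, and the groups are interleaved.

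The leading segment changed from library to library. The 12 libraries had 7 different highest segments, and 44 different segments stood in the 10 highest of any library. In Tet1-null library 0 it was the kappa segment Igkv6-15 with 143.6 FPKM (16.3% of the sum), in library 1 Igkv1-117 with 41.8 FPKM (8.26%) and in library 2 Iglv1 with 387 FPKM (16.1%). In double-heterozygous library 0 it was Igkv5-39 with 219 FPKM (16.6%), in library 1 Igkv1-110 with 56.3 FPKM (7.75%) and in library 2 Iglv1 with 40.0 FPKM (7.12%). In the Tdg-heterozygous libraries Igkv1-110 led library 0 with 112 FPKM (13.6%) and library 2 with 28.8 FPKM (11.8%), and Igkv1-135 led library 1 with 255 FPKM (10.4%). In control library 0 the highest was Igkv15-103 with 155 FPKM (29.6%), and Iglv1 led library 1 with 43.9 FPKM (8.98%) and library 2 with 61.1 FPKM (27.2%). A share of 10% or more was reached by 7 segments in 8 libraries.

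Several of these peaks belonged to 1 library. Igkv15-103 was at 155 FPKM in control library 0 and at most 14.8 FPKM in the other 11 libraries. Igkv5-39 was at 219 FPKM in double-heterozygous library 0, at 78.7 FPKM in Tdg-heterozygous library 1 and at most 17.9 FPKM elsewhere. Igkv6-15 was at 143.6 FPKM in Tet1-null library 0 and 94.0 FPKM in Tdg-heterozygous library 1, and it was listed at 0 in Tdg-heterozygous library 2. Igkv1-135 and the heavy segment Ighv1-19 both peaked in Tdg-heterozygous library 1, at 255 and 164 FPKM, where Ighv1-19 made up 21.5% of the heavy segments. Elsewhere Igkv1-135 was at most 34.7 FPKM and Ighv1-19 at most 12.3 FPKM. Bulk RNA does not show whether a heavy and a light segment came from the same cells.

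Other segments were high in most libraries. Iglv1, which encodes most lambda light chains in laboratory mice, was the only segment among the 10 highest of all 12 libraries. It had 56.2, 23.1 and 387 FPKM in the Tet1-null, 84.5, 40.4 and 40.0 in the double-heterozygous, 60.7, 149 and 28.3 in the Tdg-heterozygous and 31.6, 43.9 and 61.1 FPKM in the control libraries. Tet1-null library 2 stood far above the rest and the groups overlapped. The mean of Iglv1 over the 12 libraries, 83.8 FPKM, was the highest of all segments. Next came Igkv1-110 with 51.6 FPKM, Igkv1-117 with 49.8, Ighv1-81 with 43.7, Igkv10-96 with 39.5, Igkv6-15 with 31.0, Igkv5-39 with 30.0, Igkv1-135 with 28.7, Igkv3-2 with 26.7 and Igkv8-30 with 17.8 FPKM. These 10 segments held 43.4% of the mean sum and the 25 highest held 62.0%. Igkv10-96 was in the 10 highest of 11 libraries, Ighv1-81 and Igkv1-110 of 9 and Igkv1-117 of 8.

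**Figure D3:**
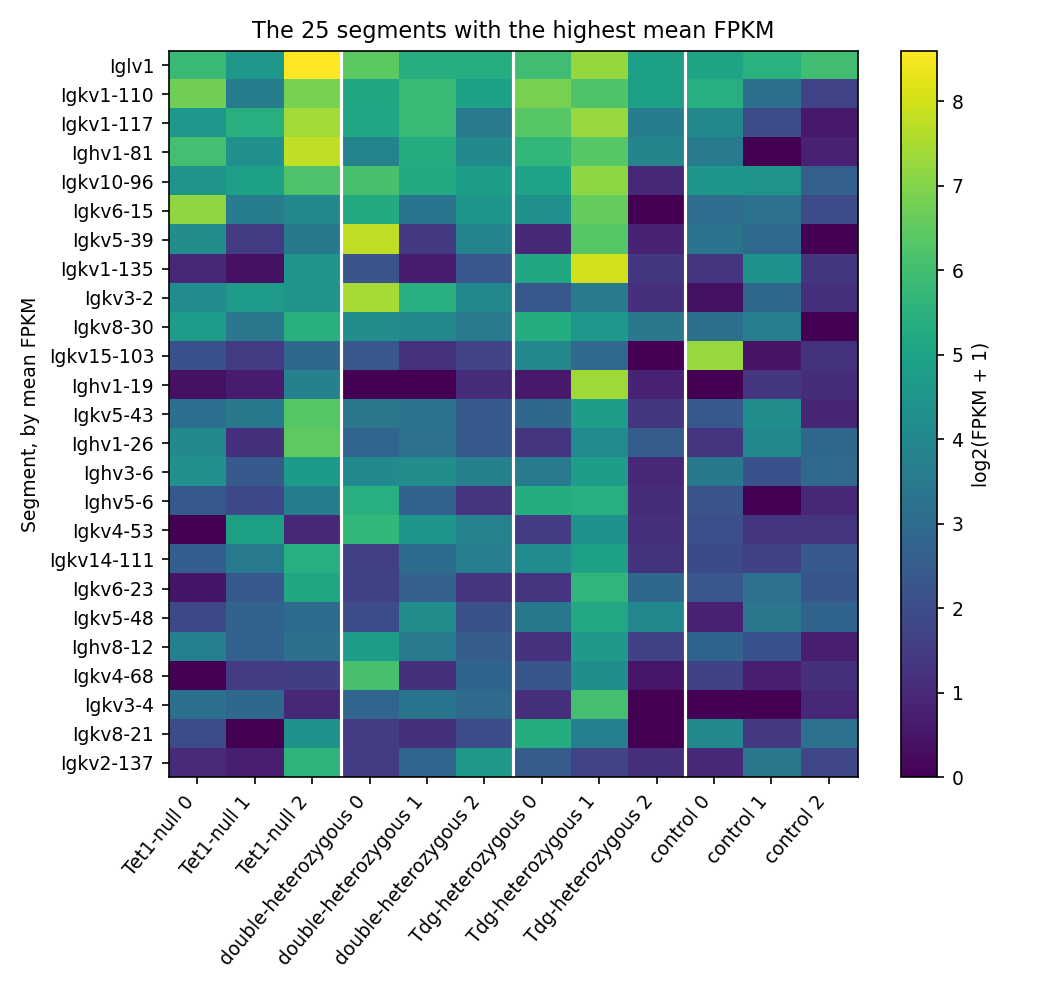
Heat map of the 25 segments with the highest mean FPKM (rows, highest at the top) in the 12 libraries (columns, white lines between groups), coloured by log2(FPKM + 1). Iglv1 is high in every column, and single bright cells mark peaks of 1 library, such as Igkv15-103 in control library 0.

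The close relatives Igkv1-110 and Igkv1-117 did not keep 1 ratio. Igkv1-110 had 105, 11.1 and 115 FPKM in the Tet1-null, 35.0, 56.3 and 29.5 in the double-heterozygous, 112, 74.1 and 28.8 in the Tdg-heterozygous and 41.3, 8.05 and 2.35 FPKM in the control libraries. Igkv1-117 had 23.3, 41.8 and 168 FPKM in the Tet1-null, 32.6, 55.2 and 10.8 in the double-heterozygous, 81.5, 154 and 11.6 in the Tdg-heterozygous and 14.9, 2.90 and 0.488 FPKM in the control libraries. Igkv1-110 was the higher of the pair in Tet1-null library 0, and Igkv1-117 in Tet1-null library 1. For both segments control libraries 1 and 2 were the lowest of all 12.

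By chain, kappa segments held 47.0% to 73.1% of the summed FPKM of a library, heavy segments 20.3% to 33.4% and the 3 lambda segments 4.83% to 28.8%. The lambda share was highest in control library 2 (28.8%) and Tet1-null library 2 (17.8%), and Iglv1 held 87.8% to 98.5% of the lambda sum. By family, the 49 Ighv1 segments held 35.0% to 69.9% of the heavy sum. The 8 Igkv1 segments, which include 3 of the sequences printed above, held 4.25% to 42.8% of the kappa sum, and the 24 Igkv4 segments 6.52% to 30.4%. Segment use also varied along the loci. The 90 placed Ighv segments lie 158 to 2580 kb from Ighm on chromosome 12, and those beyond the median distance held 45.4% to 72.0% of the placed heavy FPKM, with a median of 61.9%. The 91 placed Igkv segments lie 22.8 to 3171 kb from Igkc on chromosome 6, and those beyond the median distance held 30.4% to 72.5% of the placed kappa FPKM, with a median of 50.2%.

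Segment use overlapped to a like degree within and between genotypes. The overlap of 2 libraries, the sum over segments of the smaller of the 2 shares, had a median of 47.4% over the 12 pairs of the same group and 46.3% over the 54 pairs of different groups, with ranges of 35.5% to 57.4% and 30.6% to 61.6%. From 2 to 7 of the 10 highest segments were shared by a pair, in both kinds of pair. These are descriptions, since pairs share libraries.

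The most abundant constant regions, Igkc and Igha, which the rule did not use, ran in a similar order to the segment sums. Igkc, the kappa constant region, had 1187, 1270 and 3238 FPKM in Tet1-null, 2022, 1223 and 1091 in the double-heterozygous, 1438, 3149 and 442 in the Tdg-heterozygous and 1143, 785 and 265 FPKM in the control libraries. The 2 highest and the 2 lowest libraries were those of the segment sums. The ratio of the kappa variable sum to Igkc stayed between 0.276 and 0.480, and that of the heavy variable sum to the listed heavy constant genes between 0.209 and 0.591. Igha held 92.4% to 98.9% of the heavy constant FPKM, so the IgA class was the main one in every library, and the Ighg genes of the IgG classes together held at most 6.55%. The exception in level was Tet1-null library 2 with 72.8 FPKM of Ighg1, against at most 15.6 FPKM in the other libraries. Ighm, the IgM constant region, did not follow the sums. It was highest in double-heterozygous library 2 (9.53 FPKM) and lowest in double-heterozygous library 0 (0.391 FPKM), and it was at 1.34 FPKM in Tdg-heterozygous library 1, where the segment sum was highest. Across the 12 libraries the log2 sum of variable segments correlated with Igkc at r = 0.955, with Igha at 0.951 and with Igj at 0.900. The points share library and depth, and a variable segment and its constant region lie on the same transcript, so no p is given.

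**Figure D4:**
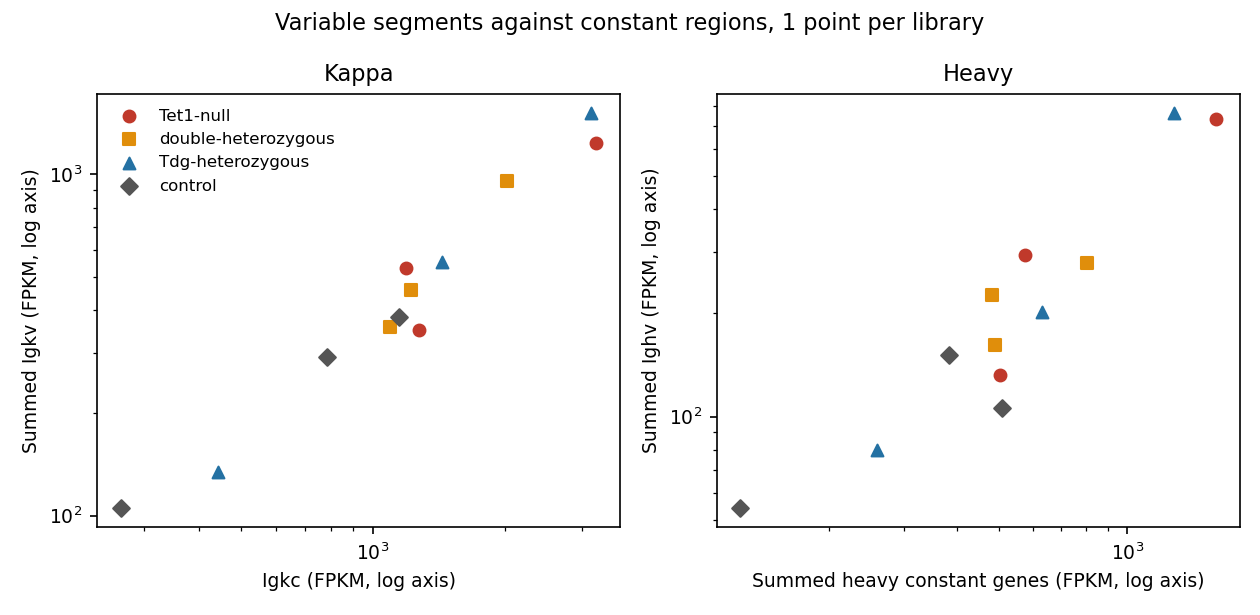
Variable segments against constant regions, 1 point per library, on log axes in FPKM: the summed Igkv against Igkc on the left, and the summed Ighv against the summed heavy constant genes on the right. Points follow a rising line in both panels, and the kappa ratio stays between 0.276 and 0.480.

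Among genes that are not immunoglobulin genes, the 5 most like the segment sum over the 12 libraries, by Pearson correlation of log2(FPKM + 1) among 15011 genes compared, were Gm15522 (r = 0.848), Golt1a (0.845), Pnpla6 (0.836), Gprasp1 (0.829) and 2010007H06Rik (0.815). They were picked as the highest of many and carry no test. Golt1a stayed between 9.36 and 14.7 FPKM, Pnpla6 between 10.6 and 17.2 FPKM and Gprasp1 between 6.27 and 10.5 FPKM, so these moved far less than the segments. Gm15522 (0.430 to 2.81 FPKM) and 2010007H06Rik (0 to 3.87 FPKM) varied more, at low levels.

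Lists of marker genes describe the cells present. Of 11 plasma cell names 10 were listed, and 0 of the 8 tested passed in any comparison by limma. The J chain gene Igj had 125, 157 and 441 FPKM in the Tet1-null, 214, 125 and 128 in the double-heterozygous, 144, 339 and 86.0 in the Tdg-heterozygous and 165, 79.9 and 33.8 FPKM in the control libraries, and its 2 highest libraries were those of the segment sums. Sdc1, Sec11c and Xbp1, which epithelial cells also express, averaged 232, 212 and 138 FPKM and did not follow it: Sdc1 was highest in Tdg-heterozygous library 2, where the segment sum was among the lowest. The plasma cell list summed to 665 to 1164 FPKM in Tet1-null, 660 to 880 in double-heterozygous, 732 to 858 in Tdg-heterozygous and 642 to 758 FPKM in control libraries. In Tet1-null against control libraries 5 of the 8 tested genes had a log2 difference above 0 (median 0.18), as did 55% of all genes tested. Only 1 of the 8, the plasma cell chaperone gene Mzb1, had an unadjusted p under 0.05 (log2 difference 1.29, adjusted p = 1 by limma). Of all genes tested, 0.884% were higher at that threshold.

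B cell markers were low except in 1 library. Their summed level was 4.89 to 8.75 FPKM in Tet1-null, 3.75 to 28.7 in double-heterozygous, 4.30 to 5.65 in Tdg-heterozygous and 2.65 to 3.87 FPKM in control libraries, over 13 rows for 12 names, since Cr2 has 2. The highest was double-heterozygous library 2, in which Ms4a1, encoding the B cell surface protein CD20, was at 3.96 FPKM against at most 0.468 FPKM elsewhere, and Cd79a, part of the B cell receptor, at 5.29 FPKM against at most 2.20 FPKM. The same library had the highest effective number of segments, 64.8, and a middling sum of 562 FPKM. Germinal centre genes, 6 of 6 listed, summed to 7.34 to 19.6 FPKM in Tet1-null, 13.3 to 16.2 in double-heterozygous, 13.8 to 16.2 in Tdg-heterozygous and 13.4 to 17.9 FPKM in control libraries, mostly Bcl6 and S1pr2. Lymphoid tissue genes such as Cxcl13 and Ccl21a summed to 16.6 to 50.5 FPKM in Tet1-null, 15.1 to 33.2 in double-heterozygous, 11.3 to 21.7 in Tdg-heterozygous and 9.31 to 21.1 FPKM in control libraries. By limma, 0 of the 3 B cell, 2 germinal centre and 4 lymphoid tissue genes tested passed in any comparison. In double-heterozygous against control libraries, Cd79a (log2 difference 0.99), Pou2af1 (0.75) and Cxcl13 (1.12) had an unadjusted p under 0.05 and an adjusted p of 1. All 3 tested B cell genes had a log2 difference above 0 there (median 0.75), but only 1 of the 4 tested lymphoid tissue genes, Cxcl13, did (median -0.15). Of all genes tested, 58.4% had a log2 difference above 0 there, and 0.838% were higher at an unadjusted p under 0.05. The part of these marker genes in the segment levels was not tested. The variable segments of the T cell receptor, the family most like the antibody segments, showed 5 to 19 of 49 rows above 0 per library and summed to 2.09 to 11.2 FPKM. The tissue was epithelial as labelled: 7 of 7 epithelial genes (Epcam, keratins and others) were above 0 in every library and summed to 2980 to 12329 FPKM. Pigr, the epithelial receptor that carries IgA into the gut, had 63.9 to 451 FPKM in Tet1-null, 77.7 to 484 in double-heterozygous, 165 to 250 in Tdg-heterozygous and 135 to 240 FPKM in control libraries. Smooth muscle genes summed to 80.4 to 658 FPKM in Tet1-null, 109 to 128 in double-heterozygous, 46.5 to 154 in Tdg-heterozygous and 81.2 to 195 FPKM in control libraries, and T cell genes to 13.0 to 83.6 FPKM over all libraries. The highest smooth muscle sum was that of Tet1-null library 1, where Tagln was at 235 FPKM against at most 63.2 FPKM elsewhere. Its part in the comparisons was not tested. The 4 listed genes of recombination and the surrogate light chain, which mark B cell precursors, summed to 0.552 to 1.58 FPKM, and none reached the filter of the test.

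Each genotype was then compared with the controls gene by gene. The test was limma on log2(FPKM + 1) with a variance trend over all 15150 genes with at least 1 FPKM in at least 3 libraries, two-sided, with Benjamini-Hochberg adjustment over all of them and a threshold of 0.05. Of the 194 segments, 131 passed this filter, 63 Ighv, 65 Igkv and 3 Iglv. The other 63 held 2.19% of the segment FPKM. The 3 mutant groups share the same controls, so their comparisons are not independent of each other.

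No variable segment passed in any of the 5 comparisons. In Tet1-null against control libraries 0 of 131 segments passed, where 0.0132% of all tested genes did. The share was 0.0198% for double-heterozygous against control, for Tdg-heterozygous against control and for all 9 mutant libraries against the controls, and 0% for double-heterozygous against Tdg-heterozygous libraries. The standard error of a segment's log2 difference had a median of 0.905 in the comparisons of 3 with 3 libraries, against 0.262 over all genes tested, so differences between groups had to be large to pass.

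Before adjustment, the segments leaned towards higher values in the mutant libraries. In Tet1-null against control libraries, 16 segments were higher and 0 lower at an unadjusted p under 0.05, against 0.884% and 0.746% of all genes, and 17 segments were higher and 0 lower with no overlap between the groups, against 3.44% and 2.2%. In double-heterozygous against control libraries the unadjusted counts were 8 higher and 0 lower (0.838% and 0.33% of all genes), and those without overlap 24 higher and 1 lower (5.78% and 2.01%). The lower one, named after its value was seen, was Igkv12-98, at 0.333, 0 and 0 FPKM in double-heterozygous and 0.346, 9.83 and 0.537 FPKM in control libraries. In Tdg-heterozygous against control libraries they were 12 higher and 0 lower (0.442% and 0.455%), and 9 higher and 0 lower without overlap (1.61% and 2.4%). The unadjusted counts turned on single libraries. With a library left out, the share over all genes was not computed, so the counts that follow have none beside them. The Tet1-null count of 16 became 8 without Tet1-null library 2 or control library 2, and 24 without Tet1-null library 1. The double-heterozygous count became 5 higher and 1 lower without control library 2. The Tdg-heterozygous count became 5 higher and 1 lower without Tdg-heterozygous library 1, 27 higher and 0 lower without Tdg-heterozygous library 2, and 8 higher and 1 lower without control library 2. The median log2 difference of the 131 segments was 0.70 in Tet1-null, 0.56 in double-heterozygous and 0.63 in Tdg-heterozygous libraries, beside 0.03, 0.05 and -0.01 over all genes. A log2 difference above 0 was found for 108 segments in Tet1-null (82.4%, against 55% of all genes), 94 in double-heterozygous (71.8%, against 58.4%) and 106 in Tdg-heterozygous libraries (80.9%, against 47.1%). Segments of 1 library rise and fall together with its sum, so these counts are not independent of each other. The filter asks for 3 of 12 libraries, of which 9 are mutant, so segments can enter more easily through mutant libraries. Its part in these counts was not tested. Without it 194 segments were tested. At an unadjusted p under 0.05, 15 were higher and 1 lower in Tet1-null, 8 and 1 in double-heterozygous, and 16 and 1 in Tdg-heterozygous libraries.

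Between double-heterozygous and Tdg-heterozygous libraries, which differ in 1 Tet1 allele, 3 segments were higher and 2 lower at an unadjusted p under 0.05 (1.23% and 0.29% of all genes). Single libraries turned this balance both ways, to 12 higher and 0 lower without Tdg-heterozygous library 1, to 3 higher and 12 lower without Tdg-heterozygous library 2, and to 6 higher and 1 lower without double-heterozygous library 2. Here too the shares over all genes were not computed with a library left out. Without overlap 3 were higher and 4 lower (4.7% and 0.898%). The median log2 difference was -0.10 and 58 segments (44.3%, against 59.9% of all genes) were above 0, beside a median of 0.05 over all genes. The segments with the smallest p were Ighv9-1 (log2 difference 2.04), Igkv3-2 (3.26) and Igkv6-20 (2.05), and all had an adjusted p of 1 by limma. The lower ones, named after their values were seen, were Igkv8-27 (-2.09), Igkv9-124 (-2.40), Ighv5-16 (-0.83) and Igkv1-88 (-1.45), the first pair at an unadjusted p under 0.05.

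In Tet1-null against control libraries the smallest p values, none of which passed, belonged to Ighv1-76, Ighv1-81 and Ighv1-75. In the Tet1-null libraries Ighv1-81 had 63.9, 19.5 and 216 FPKM, against 10.5, 0 and 0.719 FPKM in the controls. It had 13.3, 39.5 and 16.1 FPKM in the double-heterozygous and 50.3, 80.8 and 13.9 FPKM in the Tdg-heterozygous libraries. Every mutant library was above every control, which was so for 1 of the 131 segments and for 0.139% of all genes tested. The reverse held for 0 segments and 0.099% of all genes. On the log2 scale the Tet1-null difference was 4.61 (SE 1.07, adjusted p = 1 by limma), and that of all 9 mutant libraries was 3.82 (SE 0.876, adjusted p = 0.999 by limma).

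Ighv1-76 stood at 14.0, 6.18 and 6.52 FPKM in Tet1-null libraries, against 0, 0.501 and 0.368 FPKM in the controls (log2 difference 2.87, SE 0.532, adjusted p = 1 by limma). The Tet1-null libraries were all higher, but Tdg-heterozygous library 1, at 6.46 FPKM, lay among them. The 3 Tet1-null values alone met the filter of the test, as did those of Ighv1-75, given next. Ighv1-75 stood at 3.44, 1.59 and 3.65 FPKM in Tet1-null libraries, against 1.27, 1.00 and 0 FPKM in the controls (log2 difference 1.19, SE 0.341, adjusted p = 1 by limma).

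In double-heterozygous against control libraries the segment closest to passing was Ighv9-1. It had 7.09, 10.6 and 3.19 FPKM in the double-heterozygous libraries and was listed at 0 in all 3 controls (log2 difference 2.87, SE 0.432, adjusted p = 0.212 by limma). In the other mutant groups it was at most 1.84 FPKM. Its 3 double-heterozygous values alone met the filter of the test, so its entry was not independent of this difference. Without the filter the smallest adjusted p of any segment in this comparison was 0.290 by limma. Igkv3-2 had 175, 41.6 and 15.3 FPKM in the double-heterozygous libraries, against 0.318, 6.30 and 1.24 FPKM in the controls (log2 difference 4.16, SE 0.905, adjusted p = 1 by limma). Its Tet1-null values of 17.3, 26.1 and 21.3 FPKM were also above all controls, and its Tdg-heterozygous values of 4.14, 10.8 and 1.28 FPKM were not.

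Igkv3-12 had the smallest p of the segments in Tdg-heterozygous against control libraries and in the comparison of all mutant libraries with the controls. It had 5.80, 11.0 and 6.62 FPKM in the Tdg-heterozygous libraries, against 2.17, 0.650 and 0.482 FPKM in the controls (log2 difference 2.11, SE 0.421, adjusted p = 1 by limma). The double-heterozygous libraries had 12.3, 7.16 and 4.20 FPKM and the Tet1-null libraries 2.00, 4.36 and 4.25 FPKM, of which the first lay below control library 0. Igkv3-12 has few windows of its own, 9.82%, so that its reads are hard to tell from those of its relatives. Next in the Tdg-heterozygous comparison were Igkv4-79 (log2 difference 1.49) and Ighv1-80 (1.43), both with no overlap with the controls.

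**Figure D5:**
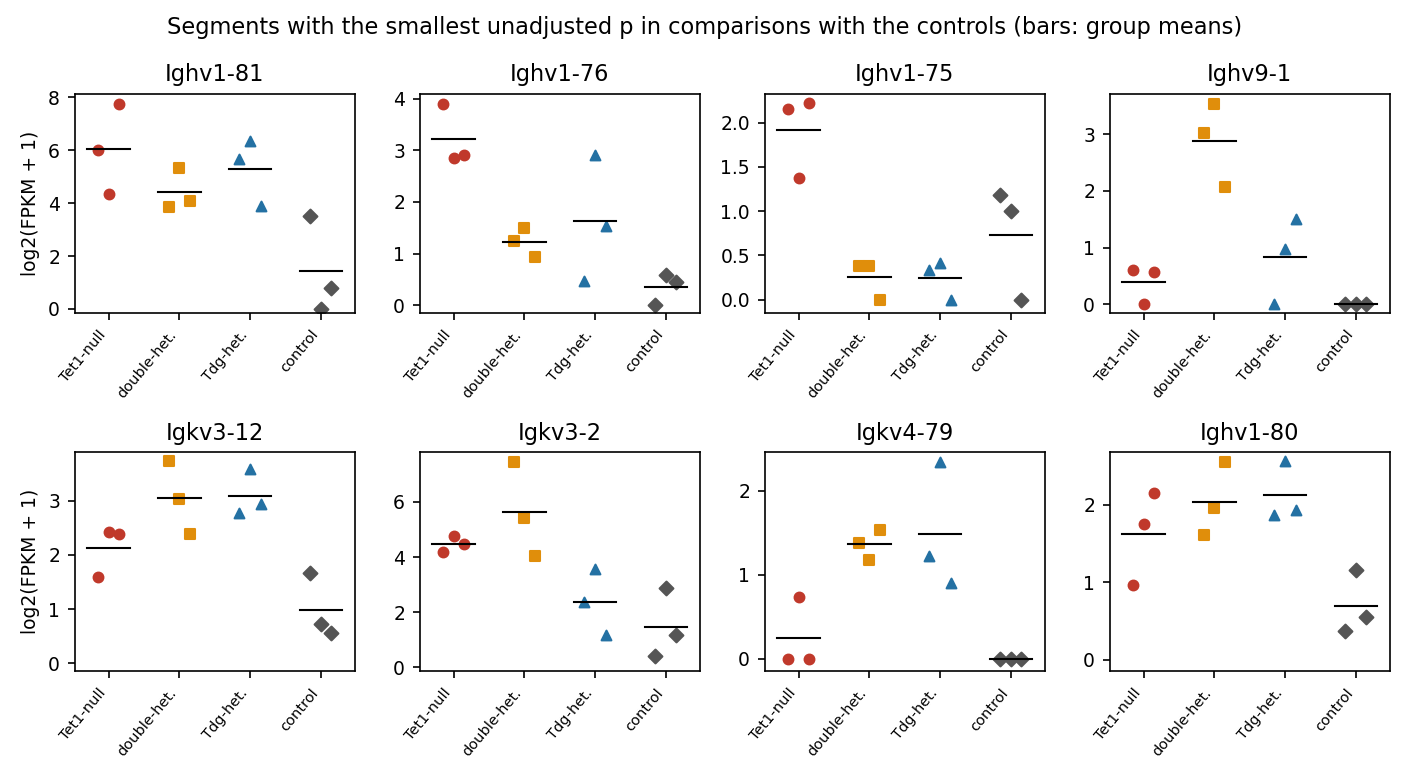
Level of 8 segments with the smallest unadjusted p in comparisons with the controls, as log2(FPKM + 1) on the y axis, 1 point per library and a bar at each group mean, groups from left to right Tet1-null, double-heterozygous, Tdg-heterozygous and control. Ighv1-81 is the one panel in which all 9 mutant points lie above all 3 control points, and none of the 8 passed adjustment.

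Over all 9 mutant libraries against the 3 controls, 16 of 131 segments were higher and 0 lower at an unadjusted p under 0.05, against 0.601% and 0.429% of all genes. A log2 difference above 0 was found for 113 of the 131 segments (86.3%), against 54.9% of all genes, and the median was 0.60 beside 0.02. These segments had passed the same filter, which segments can meet more easily through the 9 mutant libraries. The 7 constant regions tested all had a log2 difference above 0, the smallest for Ighm (0.57) and the largest for Ighg2b (1.79), with 1.21 for Igkc (SE 0.608) and 1.12 for Igha (SE 0.559). The J chain gene Igj had 1.15 (SE 0.552), and each of these genes had an adjusted p of 0.999 by limma. Leaving out a library changed the 16 higher segments to 25 without Tdg-heterozygous library 2, 10 without control library 1 and 8 without control library 2. For these counts, and for those with an Xist term below, no share over all genes was computed. With Xist (over or under 10 FPKM) as a covariate, an alternative chosen after seeing the data, 0 segments passed in each of the 5 comparisons, and 14 Tet1-null, 5 double-heterozygous and 13 Tdg-heterozygous segments were higher than in the controls at an unadjusted p under 0.05.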

How the data were processed

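Per the labels' protocols, TRIzol RNA (500 ng a library) was sequenced as single-end reads of 75 nt, which TopHat2 aligned to mm10. Cufflinks and Cuffdiff are named in the submitters' processing notes, without versions. The authors deposited 1 table of FPKM values. How reads matching several segments were assigned is not given in the sources used here. Columns were mapped to groups by their letter.

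Tests used limma 3.58.1 (R 4.3.3) on log2(FPKM + 1), with 1 model of 4 group means and Benjamini-Hochberg adjustment within each contrast. The code was tested on simulated data. Sums, shares and entropies used all 194 rows and no filter. 184 rows matched GENCODE M21 IDs, and their 75-base windows were compared with all other V segment transcripts. Segments are named if they are among the 10 with the highest mean, lead a library, or have one of the 3 smallest p values in a comparison. Others were named after their values were seen, as said beside them. The segments, lists and tests were chosen with earlier results of these data known. P-values measure the spread between libraries, and counting error cannot be computed from FPKM. A gene of the marker lists is not reported here.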

Additional observations from a re-analysis of the deposited data

Results flagged for a closer look

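Ighv1-75 lay on opposite sides of the control mean in mutant groups. It averaged 2.89 FPKM in the Tet1-null libraries, all above the control mean, whereas the double-heterozygous (0 to 0.302 FPKM) and Tdg-heterozygous libraries (0 to 0.330 FPKM) lay below it, with 1.27, 1.00 and 0 FPKM in the controls. Igkv6-20 did the same between the heterozygous groups. It averaged 5.57 FPKM in the double-heterozygous libraries, all above the control mean, and the Tdg-heterozygous libraries (0, 0.742 and 0.931 FPKM) lay below it, with 5.29, 1.12 and 0.274 FPKM in the controls. For Igkv6-20 this rests on control library 0: the 2 Tdg-heterozygous values above 0 lie between those of the other 2 controls. Only 4.32% of the 75-base windows of Igkv6-20 and 35.5% of those of Ighv1-75 differ by more than 2 bases from every other segment. The differences of effect against the controls were not tested as such, and neither segment passed in any comparison by limma.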

How the results depend on the processing

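The count of segments passing was 0 under 15 of 16 alternatives in Tet1-null against control libraries. Without Tet1-null library 1 it was 1, Ighv1-66 (named after its value was seen), with an adjusted p of 0.0172 by limma (range over leaving out each library 0 to 1), and the cause was not tested. It was 0 under all 16 alternatives of each of the double-heterozygous, Tdg-heterozygous and double-heterozygous against Tdg-heterozygous comparisons and under all 22 of the pooled comparison. At an unadjusted p under 0.05 the pooled comparison had 7 to 25 segments higher and 0 to 1 lower, but the number of segments tested differed. The 7 were of 49 at the filter of mean 5 FPKM, and the 25 were of 131 without Tdg-heterozygous library 2. Shares over all genes were not computed for these alternatives. Tried were a pseudocount of 0.1 or 5, no low-value filter, a filter at mean 5 FPKM, 2 scalings, robust variance, a replicate block, only the libraries compared, a term for Xist and leaving out each library. Of 18 pairs of libraries with the same column number, 4 had a correlation of deviations over 0.1 (range -0.506 to 0.444). Pairs with different numbers were not compared, so this does not settle whether column numbers pair the libraries. With a replicate block by column number 0 segments passed in each comparison. The differences of summed FPKM kept their sign against the controls under all alternatives, 10 for each genotype and 16 for the pooled comparison. The difference between double-heterozygous and Tdg-heterozygous libraries changed sign under 3 of 10. With only the 99 segments that have at least 50% of windows of their own, chosen after seeing the data, the Tdg-heterozygous difference was 0.72. Depth may limit the segments seen at low level, and shared sequence limits the levels of close relatives.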
